A study of Arabidopsis thaliana with 4 samples.

Results

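The 9 genes described here encode enzymes and proteins that act on the growing plant cell wall. They are the xyloglucan transglycosylases XTH16, XTH18, XTH19, XTH20 and EXGT-A3 (also known as XTH27) and the expansins EXPA15, EXPB3, EXPA7 and EXLA2. They were chosen by name, with earlier results of these data known. Each of the 9 symbols had exactly 1 probe set that the platform annotation gives to that gene alone. Thus 9 of the 22746 non-control probe sets are described. Because of that choice, counts of the 9 set beside all probe sets are descriptive only. The samples are MM2d, a cell line of Arabidopsis thaliana kept in suspension in the dark with auxin (NAA, 0.5 mg/l), cytokinin (kinetin, 0.05 mg/l) and 3% sucrose at 27 °C. Cells in early stationary phase, 7 days old, were diluted from 5 ml into 100 ml of new medium. RNA was taken 1, 3, 5 and 7 days later and hybridised to 1 Affymetrix ATH1 array per day. The 4 groups thus differ in culture age alone as far as the labels say. It is not stated whether the 4 days came from 1 flask or several, and no treatment or genotype is set against another.

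Xyloglucan is the main hemicellulose of the primary wall in Arabidopsis and binds to and between cellulose microfibrils. Transglycosylases of the XTH family cut a xyloglucan chain and join the new end to another chain, and some members hydrolyse it instead. Expansins loosen the contacts between wall polymers without cutting them and work best in an acidic wall. Alpha-expansins (EXPA) and beta-expansins (EXPB) are the classical groups, while expansin-like proteins (EXLA, EXLB) share their fold and have no established loosening activity. Both families are large, and their members are known for differing in the organ and stage at which they are expressed.

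The values are MAS5 signal intensities on a linear scale, and signals of different probe sets cannot be set against each other. A signal under 25.26, the 40th percentile of all signals, was raised to that floor and is read as a bound, since the relative error of MAS5 is large for dim probe sets. Between 57.0% and 61.6% of the probe sets lay above the floor on each array, and 15292 did so on at least 1 array and are called measured. There are no replicates, so nothing was tested and every difference below is one between single arrays. As a yardstick, 96 genes with 2 measured probe sets were used, whose log2 ratios should be equal. From their disagreement the error SD of the log2 ratio of 1 probe set was 0.57 for day 3 against day 1, 0.36 for day 5 against day 3, 0.30 for day 7 against day 5 and 0.64 for day 7 against day 1. This error leaves out differences between cultures and labellings, which 1 array per day cannot show. For day 3 against day 1 it was larger than the SD of all measured log2 ratios, 0.53. A step within it is therefore not shown to be absent. The ratio of 3′ to 5′ signal of actin, a measure of RNA integrity, was 1.45 on day 1 and 1.09, 1.18 and 1.05 on days 3, 5 and 7. That of ubiquitin was 1.59 on day 1 and 1.22, 1.30 and 1.24 later, while that of GAPDH was 0.98, 0.95, 1.00 and 1.12, highest on day 7. The part of RNA integrity in the comparisons with day 1 was not tested, and for the genes that passed 2-fold on day 7 against day 1 the values against day 3 are also given.

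XTH18 and XTH19 are next to each other on the same chromosome with no gene between them in RefSeq's table, and XTH24, which has no probe set of its own in the annotation used here, lies directly on the other side of XTH18. XTH18 is known for its part in the elongation of the primary root. Its signals were 244, 387, 222 and 1433 on days 1, 3, 5 and 7. The first 3 days stayed within 1.74-fold of each other and day 7 stood above them all, 6.46-fold over day 5 and 3.70-fold over day 3. Day 5 was below day 3 by a log2 ratio of -0.80, more than 2 of its error SDs of 0.36, while day 1 lay between them within 2 SDs of each. The step from day 3 to day 7 was 4.78 SDs. Only 13 of the 15292 measured probe sets, XTH18 among them, had so large a ratio between days 7 and 5.

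XTH19, its neighbour, is known from wounded stems, where it acts with XTH20 in the division of pith cells. It had signals of 119, 152, 547 and 707 on days 1, 3, 5 and 7. Its step came between days 3 and 5, at 3.60-fold (log2 ratio 1.85), and the differences on either side, 0.35 and 0.37 on the log2 scale, were under 2 error SDs. The neighbouring genes therefore reached nearly the same ratio of day 7 to day 1, 5.88-fold for XTH18 and 5.92-fold for XTH19, by different routes. On day 5 against day 3 the log2 ratio was -0.80 for XTH18 and 1.85 for XTH19, and on day 7 against day 5 it was 2.69 and 0.37. The RNA is that of the whole culture, so more cells with a transcript and more transcript per cell cannot be told apart here or below.

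XTH20 went the other way from XTH19. Its signals were 200, 202, 56.0 and 24.4 on days 1, 3, 5 and 7, the last just below the floor. Days 1 and 3 were level, day 5 was 3.61-fold below day 3, and day 7 was at least 2.22-fold below day 5. Against day 1, day 7 was at least 7.93-fold lower, a ratio as low as or lower than which was found for 24 of the measured probe sets.

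EXGT-A3, known from the development of leaf veins, was the 1 member whose signal was higher at every step by more than 1.5-fold. Its signals were 203, 350, 584 and 1163 on days 1, 3, 5 and 7, steps of 1.72-fold, 1.67-fold and 1.99-fold. The first step was 1.37 error SDs, the second 2.04 and the third 3.27. Such a course, with each of the 3 steps at least 1.5-fold upward and all 4 arrays above the floor, was seen in 39 of 11953 probe sets (0.326%), a limit set after the signals of EXGT-A3 were known. Day 7 was 5.72-fold above day 1.

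XTH16 lay near the floor throughout. Its signals of 17.1 and 18.3 on days 1 and 3 were below it, and those of 39.9 and 32.3 on days 5 and 7 were above it. Day 5 was at least 1.58-fold above day 3, short of the 2-fold limit. The ratio of the signals without a floor was 1.12 on the log2 scale.

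Among the expansins, EXPA15, an alpha-expansin, had signals of 206, 178, 42.4 and 39.6 on days 1, 3, 5 and 7. It formed a high pair of days and a low pair, with 4.20-fold between days 3 and 5 (log2 ratio -2.07, 5.73 error SDs). Within each pair the difference was under 1 error SD.

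EXPB3, a beta-expansin, had signals of 570, 432, 146 and 198. It too was lower on days 5 and 7 than on days 1 and 3, but its lowest day was day 5, 2.95-fold below day 3, and day 7 was 1.36-fold above day 5. That upward step, 0.44 on the log2 scale, was 1.44 error SDs, so days 5 and 7 are not separated by this yardstick. Day 7 against day 1 gave 2.87-fold lower and day 7 against day 3 2.18-fold lower.

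EXLA2, an expansin-like protein, had signals of 52.8, 50.4, 238 and 289 on the 4 days. It was the mirror image of EXPA15, with a low pair of days, a high pair, and 4.73-fold between days 3 and 5. Days 1 and 3 differed by 0.07 on the log2 scale and days 5 and 7 by 0.28, both under 1 error SD.

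EXPA7, an alpha-expansin known for its expression in root hair cells, was below the floor on days 1, 3 and 5, with signals of 10.1, 17.8 and 9.68. On day 7 its signal was 28.9, at least 1.14-fold above the earlier days when these are read at the floor. At that level no difference between the days can be stated. The other root hair marker with a probe set of its own, EXPA18, lay below the floor on all 4 days, at most 19.8, and the other 4 root hair genes on the list had no such probe set here.

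**Figure D1:**
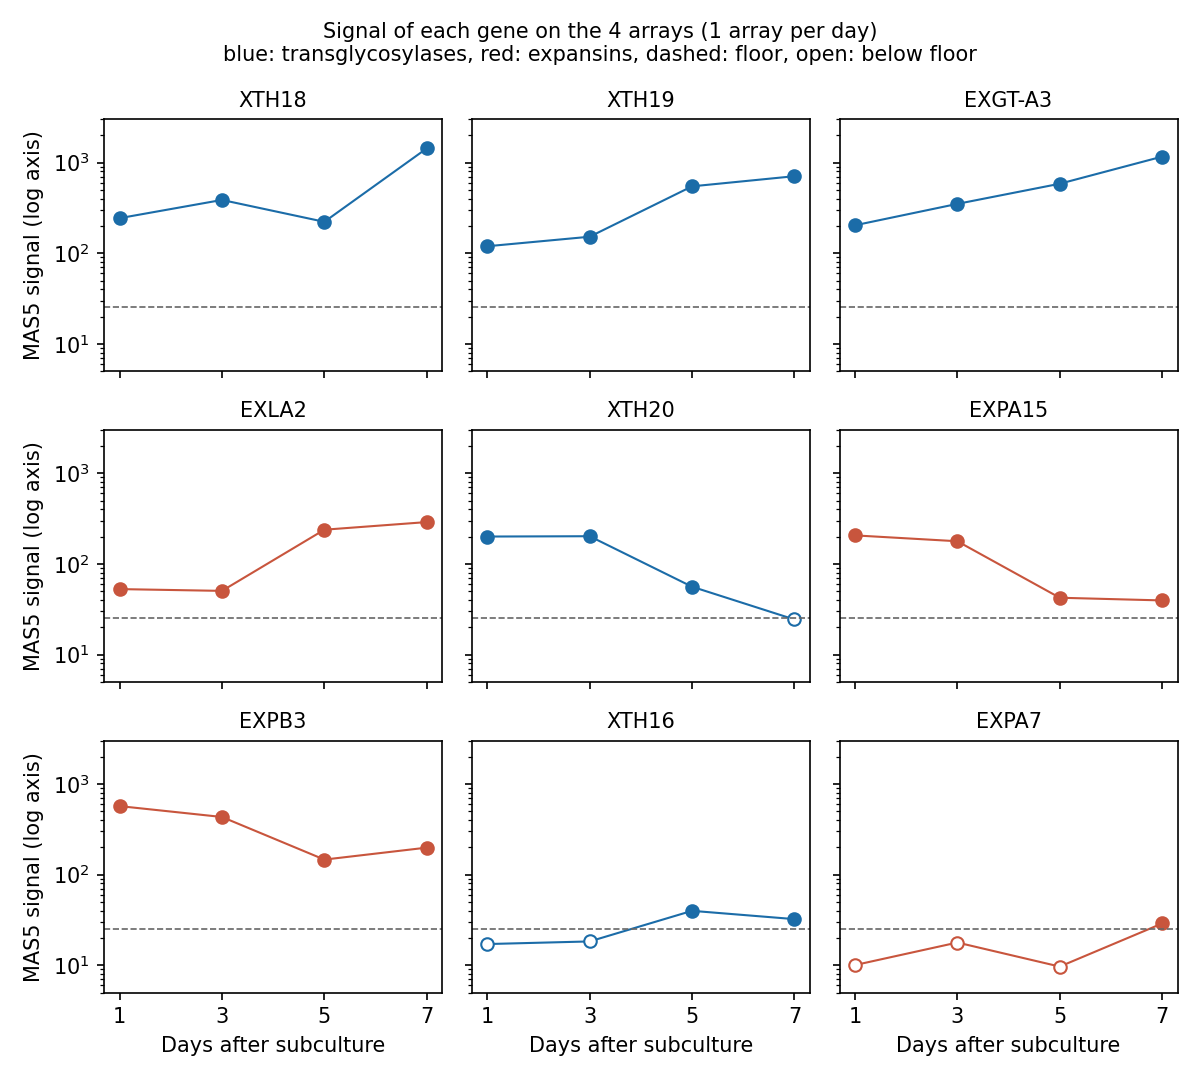
MAS5 signal (log axis) of each of the 9 genes against days after subculture, 1 array per day, with no error bars since there are no replicates; the dashed line is the floor at 25.26 and open circles lie below it. XTH18, XTH19, EXGT-A3 and EXLA2 are at their highest on day 7, XTH20, EXPA15 and EXPB3 are lower on days 5 and 7 than on days 1 and 3, and XTH16 and EXPA7 lie near or below the floor.

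Day 3 against day 1 compares the culture with its newly diluted state. None of the 9 genes differed by 2-fold. Of all measured probe sets 4.02% were higher by that limit and 1.65% lower. Setting the array medians equal gave shares of 2.71% and 3.08%, quantile normalization gave 3.12% and 2.04%, and scaling by hybridisation controls gave 3.02% and 2.19%, with none of the 9 genes past the limit in any of these. The highest ratios were those of EXGT-A3 (log2 0.78) and XTH18 (0.67), and the lowest that of EXPB3 (-0.40). The median absolute log2 ratio was 0.21 over the 9 genes and 0.27 over all measured probe sets.

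Day 5 against day 3 was the step at which most of these genes differed. EXLA2 and XTH19 were at least 2-fold higher, 2 of 9, where 6.24% of all measured probe sets were. EXPA15, XTH20 and EXPB3 were at least 2-fold lower, 3 of 9, where 3.81% of all measured probe sets were. The median absolute log2 ratio was 1.56 over the 9 genes against 0.34 over all measured probe sets, while the signed median was 0.00 because the genes went both ways. The 9 were chosen with earlier results of these data known, so these differences from all probe sets are not evidence about the families. Each direction held a transglycosylase and at least 1 expansin, so neither family moved as a block. The signed median is set by EXPA7, which is below the floor on both days, and was -0.80 with no floor.

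In 7 of the 9 genes the signal spanned 2-fold or more over the course. Among them, day 3 to day 5 was the largest of the 3 steps for 5, namely XTH19, XTH20, EXPA15, EXPB3 and EXLA2. A range of at least 2-fold was found in 31.3% of all measured probe sets, and the step from day 3 to day 5 was the largest in 45.6% of those. For XTH18 and EXGT-A3 the largest step was from day 5 to day 7, as in 27.7% of those probe sets, and for 0 of the 7 was it the step from day 1 to day 3, against 26.7%. The 3 steps of EXGT-A3, at log2 0.78, 0.74 and 0.99, lie close together beside their error SDs of 0.57, 0.36 and 0.30. Which of them is the largest is therefore not settled. This division by the largest step was chosen after the signals had been seen.

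Day 7 against day 5 brings the culture to the age of its own inoculum. XTH18 alone of the 9 was at least 2-fold higher, where 2.94% of all measured probe sets were, and EXGT-A3 at 1.99-fold lay just short. EXPA7, dim on both days, passed the limit with no floor (log2 1.58) or with one at the 25th percentile (1.34). XTH20 alone was at least 2-fold lower, where 2.71% were. XTH19, EXLA2 and EXPA15 had log2 ratios of 0.37, 0.28 and -0.10. EXPB3 had a log2 ratio of 0.44 and XTH16 one of -0.30. EXPA15, EXPB3 and EXLA2 all stayed within 1.36-fold between these days. With arrays scaled to the hybridisation controls EXGT-A3 passed 2-fold (log2 1.35) and XTH20 no longer did (-0.84), while 8.13% of all measured probe sets were higher and 1.06% lower.

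Over the whole course, day 7 against day 1, 4 of the 9 genes were at least 2-fold higher, where 13.1% of all measured probe sets were, and 3 were at least 2-fold lower, where 10.5% were. Scaled to a common median the shares of all probe sets were 8.89% and 16.3%, and scaled to the hybridisation controls 20.4% and 6.22%, with the same 7 genes called. The 4 higher genes had nearly the same ratio: 5.92-fold for XTH19, 5.88-fold for XTH18, 5.72-fold for EXGT-A3 and 5.48-fold for EXLA2. At least a 5-fold higher signal was found in 344 of the measured probe sets (2.25%). The lower genes were XTH20 (at least 7.93-fold), EXPA15 (5.22-fold) and EXPB3 (2.87-fold). Of the 5 transglycosylases 3 were higher, 1 was lower and XTH16 was neither, and of the 4 expansins 1 was higher, 2 were lower and EXPA7 was neither.

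With day 3 in place of day 1, a comparison added after the signals had been seen, the same 7 genes passed 2-fold in the same directions. EXLA2 was then 5.74-fold, XTH19 4.65-fold, XTH18 3.70-fold and EXGT-A3 3.32-fold higher on day 7. EXPA15 was 4.49-fold and EXPB3 2.18-fold lower, and XTH20 was below the floor as before. Of all measured probe sets, 7.95% were higher and 6.89% lower by 2-fold or more in that comparison. The 2 comparisons share the day 7 array and are not independent.

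**Figure D2:**
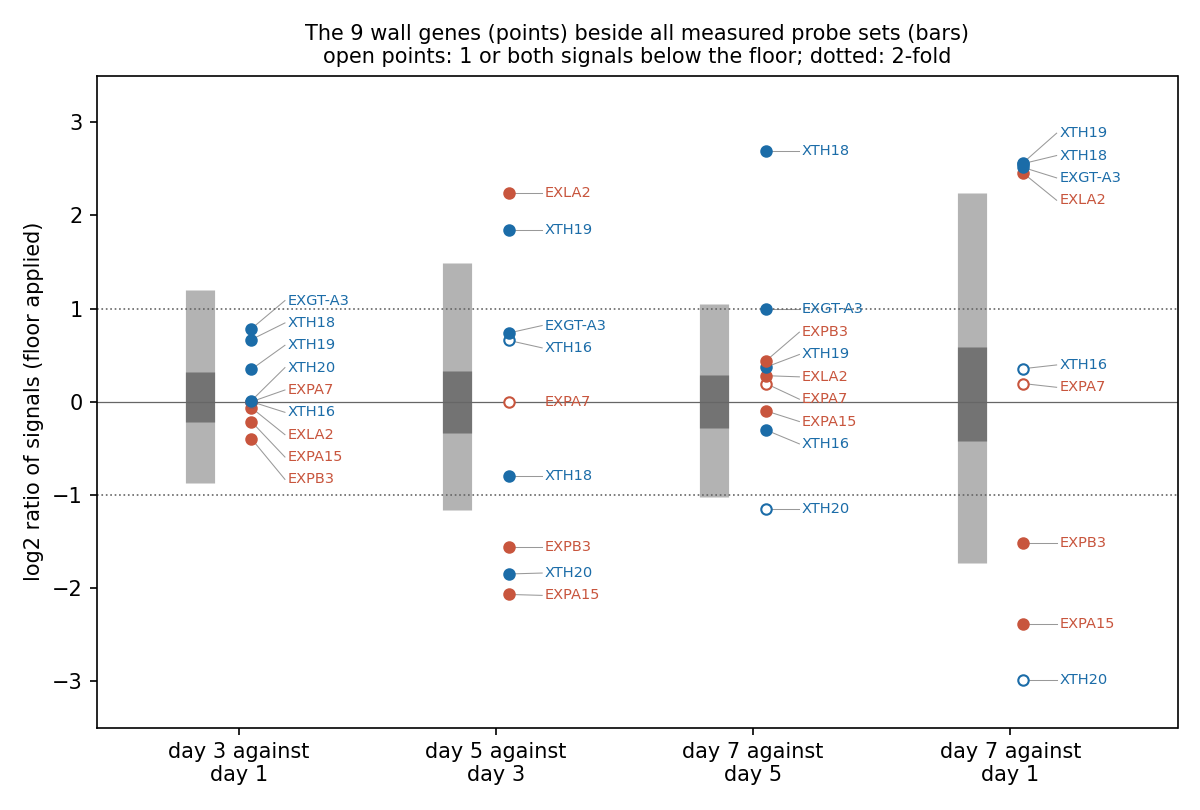
Log2 ratio of the signals of each of the 9 genes (points, transglycosylases in blue and expansins in red) in the 4 comparisons, beside all 15292 measured probe sets, of which the light bar covers the central 95% and the dark bar the quartiles. All 9 genes lie within 2-fold on day 3 against day 1, 5 lie beyond it on day 5 against day 3, and on day 7 against day 1 XTH18, XTH19, EXGT-A3 and EXLA2 lie together above the light bar, which ends at 2.25.

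The time courses of these 7 genes were compared by the root mean square difference of their log2 signals over the 4 days, each centred on its own mean. XTH19 and EXLA2, a transglycosylase and an expansin-like gene, were the closest pair at 0.17. XTH20 and EXPA15, again 1 gene of each family, differed by 0.39, EXPA15 and EXPB3 by 0.40, and XTH19 and EXGT-A3 by 0.40. XTH18 and XTH19, though next to each other in the genome, differed by 1.06, and XTH18 was nearest to EXGT-A3 at 0.71. XTH20 and EXLA2 were the farthest apart, at 2.44. These values describe 4 arrays and carry no test.

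**Figure D3:**
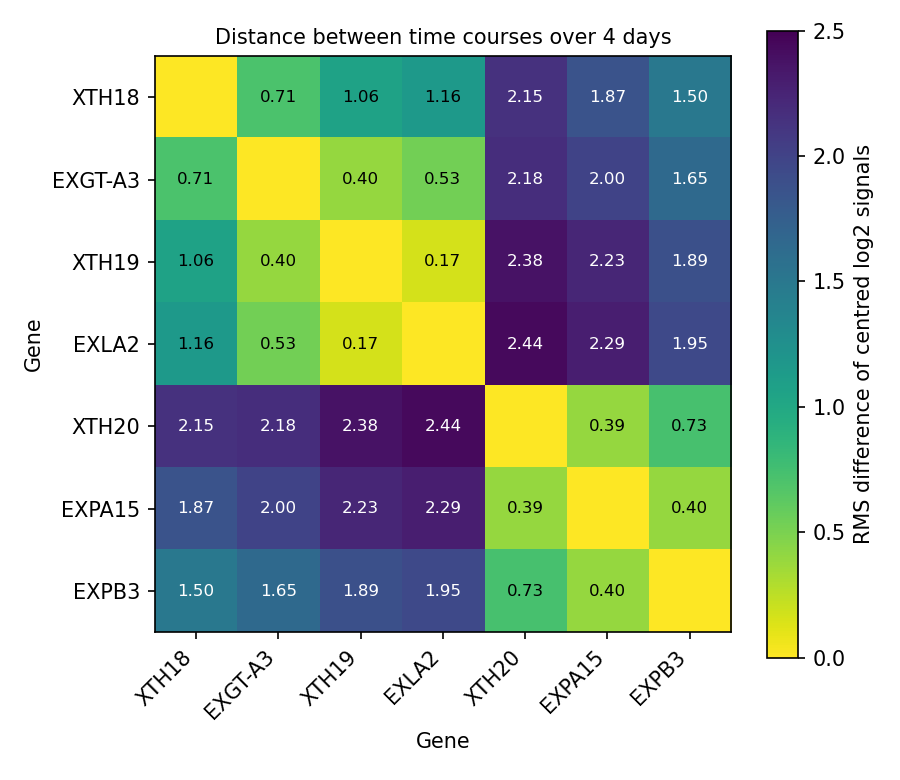
Root mean square difference of centred log2 signals over the 4 days between each pair of the 7 genes with at least a 2-fold range; yellow marks pairs with like courses and dark blue pairs with unlike courses. XTH18, EXGT-A3, XTH19 and EXLA2 form one block and XTH20, EXPA15 and EXPB3 the other, with XTH18 the least close of its block.

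Outside both families, the genes with the most similar courses were sought among 907 probe sets that lie above the floor on all 4 arrays and name 1 gene with a symbol. GAMMA-VPE, a protease that processes vacuolar proteins, was the nearest to XTH19 (0.08) and to EXLA2 (0.14), with signals of 175, 214, 843 and 1148 on days 1, 3, 5 and 7. The second nearest were cox2, a mitochondrion-encoded subunit of cytochrome oxidase, for XTH19 (0.12) and psbA, a plastid-encoded core protein of photosystem II, for EXLA2 (0.15). PR-1-LIKE was the nearest to XTH20 (0.17) and to EXPA15 (0.37), with signals of 772, 849, 275 and 131, and ATLP-1, a thaumatin-like protein, was the second for both (0.41 and 0.45).

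TET9, a tetraspanin, was the nearest to EXGT-A3 (0.15), with signals of 76.6, 165, 220 and 429, and ACA.l came next (0.15). WRKY22, a transcription factor, was the nearest to XTH18 (0.29), with signals of 34.3, 58.7, 46.1 and 170, and shared its lower day 5 and high day 7; PRN followed (0.39). RPN12a, a subunit of the proteasome's regulatory particle, and EMB2786 were the nearest to EXPB3 (0.27 and 0.28). The median difference over the 907 probe sets ran from 0.86 for EXPB3 to 1.31 for XTH20, so all of these lay well below the typical distance, as the nearest of many must.

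The wider families were searched by locus code, 33 XTH genes and 28 expansins. Of these 61 genes, 26 have a probe set of their own in the annotation used here, and the other 35 were not analysed here, whether or not the array carries probes for them. Of the 26, 18 were measured, the 9 described above and 9 other expansins, which is not the full set that the cells may express. Of the 10 XTH genes looked at, the 5 others were not measured: XTH21, XTH26, XTH29, XTH32 and XTH33 lay below the floor on every day, at most 23.8. Of the 9 other expansins, EXPA9, EXPA16, EXPB1, EXPB5 and EXLB1 peaked at 28.9, 35.7, 33.6, 35.2 and 39.3. These peaks are less than 2-fold above the floor, so with the floor these genes could not be called in either direction. With the floor applied, none of the 9 other expansins was at least 2-fold different on day 5 against day 3 or on day 7 against day 5. On day 3 against day 1, 1 was higher, where 4.02% of all measured probe sets were. On day 7 against day 1, 2 were higher, where 13.1% were. With day 3 in place of day 1 neither of these 2 was 2-fold higher on day 7, and the family genes higher were the 4 named above in place of 6. With the floor applied none of the 9 was at least 2-fold lower in any of the 4 comparisons. On day 7 against day 1, 3 of the 18 measured family genes, XTH20, EXPA15 and EXPB3, were thus called lower, where 10.5% of all measured probe sets were. With no floor or one at the 25th percentile, 4 family genes were lower on day 5 against day 3 and 4 on day 7 against day 1.

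EXPA20, an alpha-expansin, had the widest range of the 9 other expansins. Its signals were 29.5, 70.0, 114 and 86.6 on days 1, 3, 5 and 7, 2.38-fold higher on day 3 than on day 1 and 2.94-fold higher on day 7 than on day 1. Day 7 against day 3 gave 1.24-fold, so both calls rest on the day 1 array. EXLA1, a close relative of EXLA2, had signals of 655, 1035, 1495 and 1819 and was 2.78-fold higher on day 7 than on day 1 but 1.76-fold higher than on day 3. EXLA3, which is separated from EXLA1 in the genome by 1 tRNA gene, had signals of 314, 296, 492 and 462, with a log2 ratio of 0.73 on day 5 against day 3, the step at which EXLA2 had 2.24. All 3 EXLA genes thus had a higher signal on day 5 than on day 3, and EXLA2 alone of the 3 by more than 2-fold. The log2 ratio of EXLA1 at that step, 0.53, was under 2 error SDs of 0.36, so its days 3 and 5 are not separated by this yardstick. EXLB1 was above the floor on day 3 alone, at 39.3. EXPA4, an alpha-expansin named here after its values were seen, had signals of 1411, 1241, 1830 and 1900 and stayed within 1.53-fold.

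**Figure D4:**
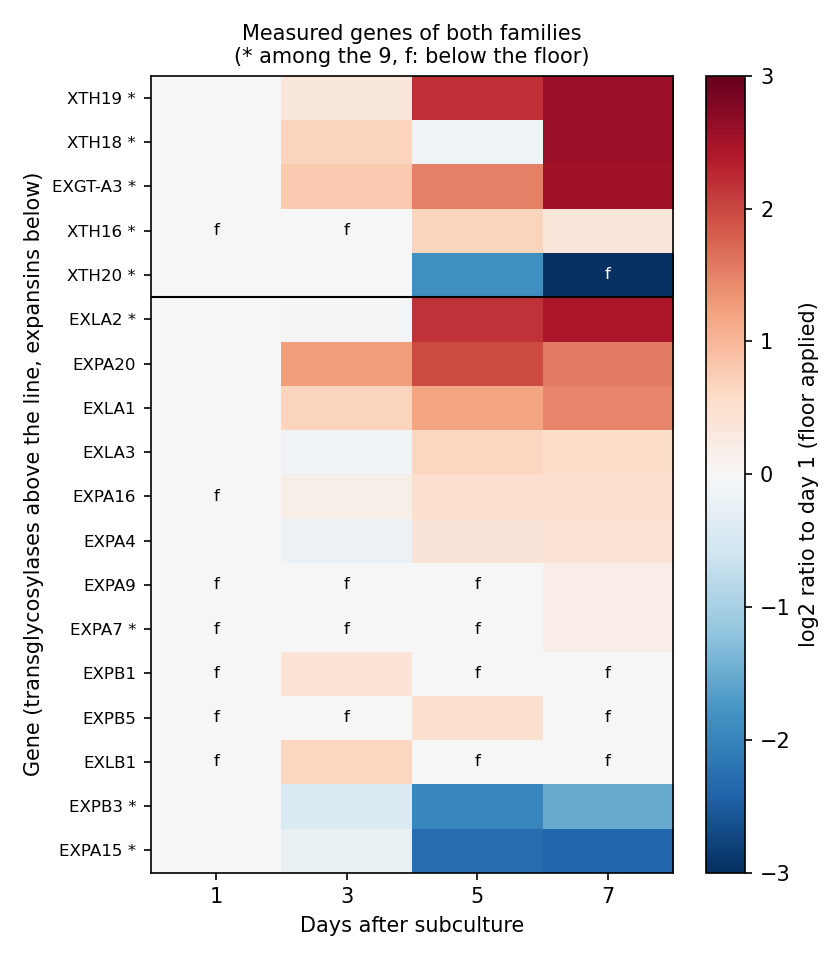
Log2 ratio to day 1 of the 18 measured genes of both families (rows) on days 1, 3, 5 and 7 (columns), with the floor applied; f marks a signal below the floor and an asterisk the 9 genes described. Red (higher) and blue (lower) rows occur in both families, and EXPA20 and EXLA1 are the other expansins that are at least 2-fold higher on day 7 than on day 1, at 1.24-fold and 1.76-fold against day 3.

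Other genes of the xyloglucan and cellulose network could be followed in few cases, since 1 of 11 genes of xyloglucan synthesis and trimming, 1 of 8 genes of primary wall cellulose and 0 of 5 plasma membrane proton pumps on the lists have a probe set of their own in the annotation used here. CSLC4, which makes the glucan backbone of xyloglucan, had signals of 136, 197, 273 and 288 and was 2.12-fold higher on day 7 than on day 1 and 1.46-fold higher than on day 3. COB, a protein needed for oriented cellulose deposition, had signals of 159, 248, 327 and 374 and was 2.35-fold higher on day 7 than on day 1 and 1.51-fold higher than on day 3. Neither call thus held with day 3 in place of day 1. With arrays scaled to a common median both ratios fell short of 2-fold, at log2 0.80 and 0.95. Of 8 other floors, scalings and offsets, CSLC4 reached 2-fold in 5 and COB in 7.

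The labelled material was checked against markers as far as the annotation allowed. AUR1, a mitotic kinase and the 1 of 6 markers of dividing cells with a probe set of its own, had signals of 475, 399, 363 and 227 on days 1, 3, 5 and 7, above the floor on every day. LHCB4.1, a light-harvesting protein of green cells, lay between 71.6 and 85.7 although the cells grew in the dark, and was the 1 of 6 markers of green cells with a probe set of its own. None of the 6 markers of xylem vessels had one, so xylem cells could not be looked for. The log2 ratio of AUR1 was -1.07 on day 7 against day 1 and -0.82 on day 7 against day 3. Over 8 other floors, scalings and offsets that on day 7 against day 1 ran from -1.35 to -0.77. In both comparisons 4 of the 9 wall genes were higher and 3 lower. The part of AUR1 in their signals was not tested.

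**Figure D5:**
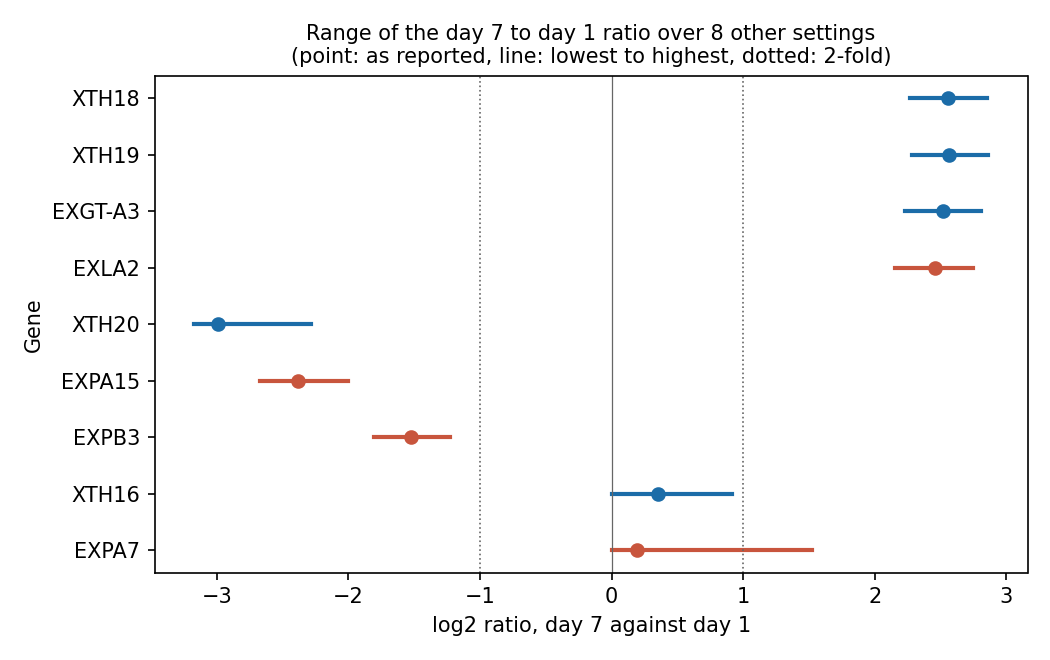
Log2 ratio of day 7 to day 1 for each of the 9 genes as reported (point) and its lowest and highest value over 8 other floors, scalings and offsets (line); dotted lines mark 2-fold. The lines of XTH18, XTH19, EXGT-A3 and EXLA2 lie wholly above 2-fold and those of XTH20, EXPA15 and EXPB3 wholly below it in the other direction, while that of EXPA7 runs from 0.00 to 1.52.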

How the data were processed

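The deposited table gives 1 signal intensity per probe set and array on a linear scale. MAS5 made it, per the submitters' processing notes; version and settings are not given in the sources used here. The mean over probe sets, trimmed by 2% from below and above, was 100.0 for each of the arrays, whose values were compared as deposited, and a change in total RNA per cell leaves no trace. Of 22810 probe sets, 64 controls were left out. Genes were named from the platform annotation (13513 probe sets of 1 gene) and RefSeq's TAIR10.1 table, used for names and gene order, with no coordinates printed. Signals under the 40th percentile were raised to it, and a probe set past 2-fold was called higher or lower. With 1 array per day there is no test and no interval. Alternatives were floors at the 25th and 50th percentile and none, 4 scalings, log2(signal + 16), and limits of 1.5-fold and 3-fold. The error of 1 probe set is the SD of the disagreement within 96 genes divided by the square root of 2. Counting and matching were run on simulated data with noise below the error found here and planted changes above 2-fold. That run checks the code and not the calls in these data. The genes and lists were chosen with earlier results of these data known. Named are all 9 genes, up to 4 other genes per list with the widest range, and the 2 probe sets with the course nearest to each gene of at least 2-fold range; exceptions are stated. Protein and promoter sequences were not used here. Python 3.11.15, numpy 2.4.6, pandas 2.3.3 and scipy 1.17.1 were used.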

Additional observations from a re-analysis of the deposited data

How the results depend on the processing

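No paired analysis was possible because each day has 1 array. All 7 genes called on day 7 against day 1 and all 5 called on day 5 against day 3 kept their call in all 8 other floors, scalings and offsets, as did XTH18 on day 7 against day 5, but not XTH20. In all, 182 of 217 recomputed counts and medians changed little, 35 moved, and no called ratio of the 9 genes turned sign under these settings. Scaling to the hybridisation controls shifted the median of all measured log2 ratios by 0.32 on day 7 against day 5 and by 0.27 on day 7 against day 1, and scaling to a common median shifted the latter by -0.19.

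On day 3 against day 1, the 1.5-fold limit gave 2 of the 9 genes higher (0 at 2-fold) and 5 family genes higher (1 at 2-fold); family genes higher were 2 with the floor at the 25th percentile or none, and 0 with the floor at the 50th, with log2(signal + 16) or with the 3-fold limit. On day 5 against day 3, the 1.5-fold limit gave 4 of the 9 genes and 6 family genes higher and 5 family genes lower, and the median of the 9 genes was -0.64 with the floor at the 25th percentile, -0.80 with none and -0.40 with log2(signal + 16), the middle gene being XTH18 with no floor and otherwise EXPA7, which is dim on both days.

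On day 7 against day 5, the genes higher were 2, among the 9 and in the family alike, with the floor at the 25th percentile or none, quantile normalization, the hybridisation controls or the 1.5-fold limit. The genes lower were 0, among the 9 and in the family alike, with a 50th-percentile floor, the hybridisation controls, log2(signal + 16) or the 3-fold limit, and 2 in the family with no floor. The median was 0.64 with the hybridisation controls. On day 7 against day 1 the median of the 9 genes, 0.35 as reported, was 1.34 with a 25th-percentile floor and 1.52 with none, where EXPA7 is the middle gene. Low signals limit XTH16, EXPA7 and the day 7 value of XTH20.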

Other observations

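Expansins without a measured signal were EXPA8, EXPA18 and EXPB2, and, outside the lists, EXPA21 and EXPA24, at most 2.54 and 4.50. A probe set shared by EXPA22 and EXP26 had signals of 5.01, 4.05, 4.37 and 0.55 on days 1, 3, 5 and 7, and a probe set shared by EXPA23 and EXPA25 had 3.71, 1.85, 2.07 and 3.41, all below the floor. EXPB1 was above the floor on day 3 alone, at 33.6, EXPB5 on day 5 alone, at 35.2, and EXPA9 on day 7 alone, at 28.9. EXPA16, an alpha-expansin, was below the floor on day 1, at 19.1, and at 28.7, 35.7 and 35.0 on days 3, 5 and 7.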
